A study of Mus musculus with 28 samples.

Results

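Gfi1 was present or absent as a transgene in 7 mouse embryonic stem cell lines, and the 14 doxycycline (Dox) libraries of these lines, out of 28 libraries in the series, were compared by its presence. Lines with Gfi1 were iGfi1, iG+A, iG+P and iGPA (8 libraries), and lines without it were iAtoh1, iPou4f3 and iP+A (6 libraries), where A stands for Atoh1 and P for Pou4f3. All lines derived from the A2loxCre parental line and carried a Dox-inducible polycistronic cassette that ends in the fluorescent protein Venus, so every library held the same inducible background. Cells were differentiated as embryoid bodies (aggregates that form derivatives of all germ layers) to day 6, with 2 µg/ml Dox during the last 48 h. Venus-positive cells were then sorted, whereas the 14 untreated libraries came from whole, unsorted embryoid bodies of the same lines. Each combination is represented by 1 line and 2 libraries, which the study's methods call biological replicates. No line carried Venus without a factor, and therefore the comparison adjusts for the presence of Atoh1 and of Pou4f3 instead of setting iGfi1 against a factor-free line.

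Gfi1 is a zinc finger transcription factor that mostly represses transcription. Its SNAG domain recruits histone demethylase and deacetylase complexes to sites with an AATC core. In blood it restrains stem cell proliferation and guides the choice between myeloid and lymphoid fates, and in the inner ear it acts with Atoh1 and Pou4f3 in hair cells, which fail to survive without it.

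The 28 libraries summed to between 36751941 and 40380674 normalized counts each, and no Dox library stood apart in total. Values are normalized counts (Kallisto estimates scaled by DESeq2 size factors), and differences are on the log2(normalized count + 1) scale, which understates changes of weakly expressed genes. Of 19421 genes, 16837 reached 10 normalized counts in at least 2 libraries and were tested. The line was the unit: the 2 libraries were averaged, and limma with an additive adjustment for Atoh1 and Pou4f3 was fitted over 7 line values. The Gfi1 difference below is the coefficient of that fit, with its standard error (SE) and an adjusted p (limma, Benjamini-Hochberg over all genes tested). Genes were called higher or lower at an adjusted p under 0.05 and a log2 difference of at least 1.5.

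Gfi1 itself separated the libraries as labelled. It ranged from 8119 to 12490 normalized counts (median 10140) in the 8 Dox libraries of Gfi1 lines and from 49.7 to 113 (median 99.0) in the 6 others, a log2 difference of 6.80 (SE 0.15, adjusted p = 0.000158). The coding sequence of the transgene cannot be told from the endogenous gene (chr5:108145674-108155056, mm9), so this value sums both. Atoh1 did not pass the test between lines with and without Gfi1 (0.25, SE 0.21, adjusted p = 0.485), with 12800 to 21200 in every Atoh1 line and 14.3 to 32.5 elsewhere. Pou4f3 was less even. iPou4f3 held 4690 and 5380 against 17600 and 19900 in iG+P, a matched log2 difference of 1.90 (SE 0.20). iP+A (12900 and 10900) and iGPA (13000 and 15100) were close. Results that rest on iG+P against iPou4f3 therefore also carry a higher Pou4f3 level. When the measured levels of Atoh1 and Pou4f3 replaced their presence as covariates, an alternative chosen after the values were seen, 359 genes were higher and 335 lower.

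**Figure D1:**
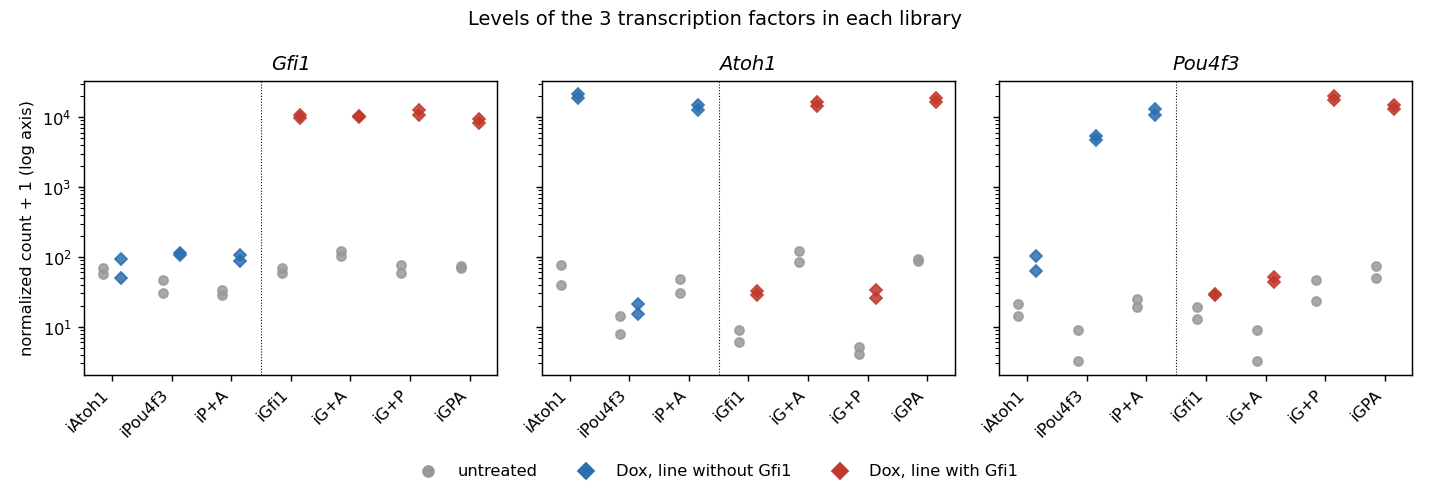
Normalized counts plus 1 (log axis) of Gfi1, Atoh1 and Pou4f3 in each library, with the 7 lines on the x axis, grey circles for untreated and diamonds for Dox libraries. The 8 Dox libraries of Gfi1 lines sit at or above 8119 normalized counts of Gfi1 and the 6 others at or below 113, while Pou4f3 in iPou4f3 stays below its level in the other lines that carry it.

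In Dox-treated cells 354 genes, Gfi1 included, were higher with Gfi1 (2.1% of genes tested) and 321 were lower (1.91%). At an unadjusted p under 0.05 there were 2446 and 2469. Every called gene had the same sign in each of the 3 matched pairs of lines whose cassettes differ only by Gfi1 (iG+A against iAtoh1, iG+P against iPou4f3, iGPA against iP+A), and 309 of the higher and 295 of the lower genes differed by at least 1 log2 unit in all of them. These pairs are part of the values that chose the genes, so this describes them and is no further support. The 8 libraries with Gfi1 lay wholly above the 6 without for 176 of the 354 higher genes (3.84% of all genes tested did so) and wholly below for 220 of the 321 lower genes (5.51% of all genes). Before Dox the same comparison called 0 genes higher (0%) and 1 lower (0.00594%, Nnat, described below). With iPou4f3 left out, the untreated comparison called 17 higher and 49 lower. At an unadjusted p under 0.05 the untreated comparison held 447 genes, 99 higher and 348 lower. The untreated libraries of the Gfi1 lines lay wholly above the others for 17 genes (0.101%) and wholly below for 11 (0.0653%).

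The number of calls depended on which line was left out. Without iGPA only 1 gene was called higher and 2 lower, without iP+A 68 and 72, without iG+A 92 and 135, without iG+P 160 and 170, without iAtoh1 172 and 351, without iGfi1 278 and 294, and without iPou4f3 436 and 207. These fits have 2 residual degrees of freedom in place of 3. Without iGPA, 326 of the 354 and 307 of the 321 genes had a difference of at least 1.5 in their direction, which their selection on the shared lines favours.

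**Figure D2:**
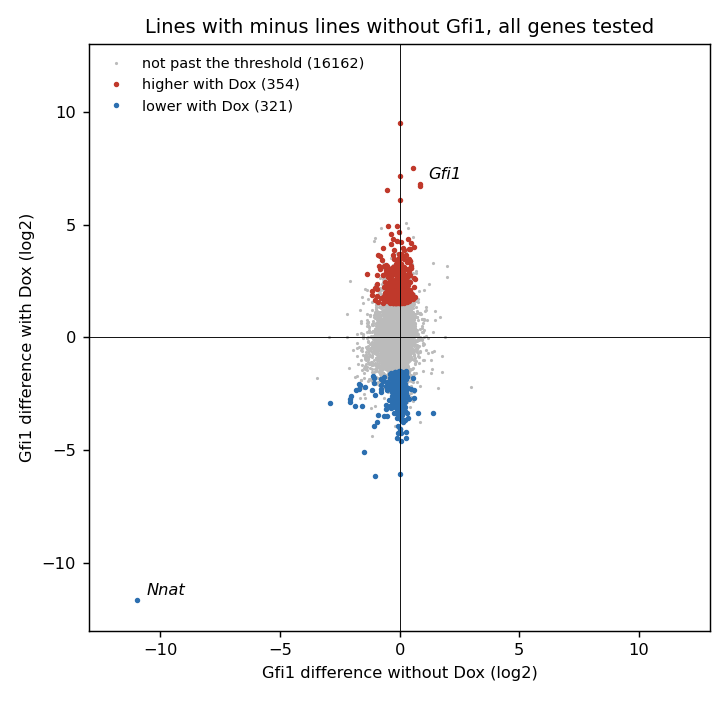
Gfi1 difference (log2, lines with minus lines without Gfi1, adjusted for Atoh1 and Pou4f3) of each gene tested, in untreated libraries on the x axis and in Dox libraries on the y axis, with genes called higher in red and lower in blue. The 354 and 321 called genes lie between -3 and 2 on the untreated axis except Nnat at the lower left, which was listed at 0 in every library of the Gfi1 lines. The highest point is a clustered protocadherin, a family whose shared exons make its counts uncertain.

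Within lines, the called genes moved on Dox where Gfi1 was in the cassette. The median change of the 354 higher genes between Dox and untreated libraries was 1.43 in iGfi1, 2.46 in iG+A, 2.22 in iG+P and 2.80 in iGPA (log2), against -0.10 in iAtoh1, -0.01 in iPou4f3 and 0.05 in iP+A. The 321 lower genes changed by a median of -1.59 in iGfi1, -1.81 in iG+A, -2.28 in iG+P and -2.06 in iGPA, against 0.17, 0.07 and -0.12. Both groups were therefore already displaced in iGfi1, the line with no partner factor. Above 0 in all 4 Gfi1 lines were 324 of the 354 (21.9% of all genes), and below 0 in all 4 were 290 of the 321 (20.7% of all genes). These medians use the Dox values that chose the genes, and they set sorted cells against unsorted embryoid bodies, so they are given as a description.

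**Figure D3:**
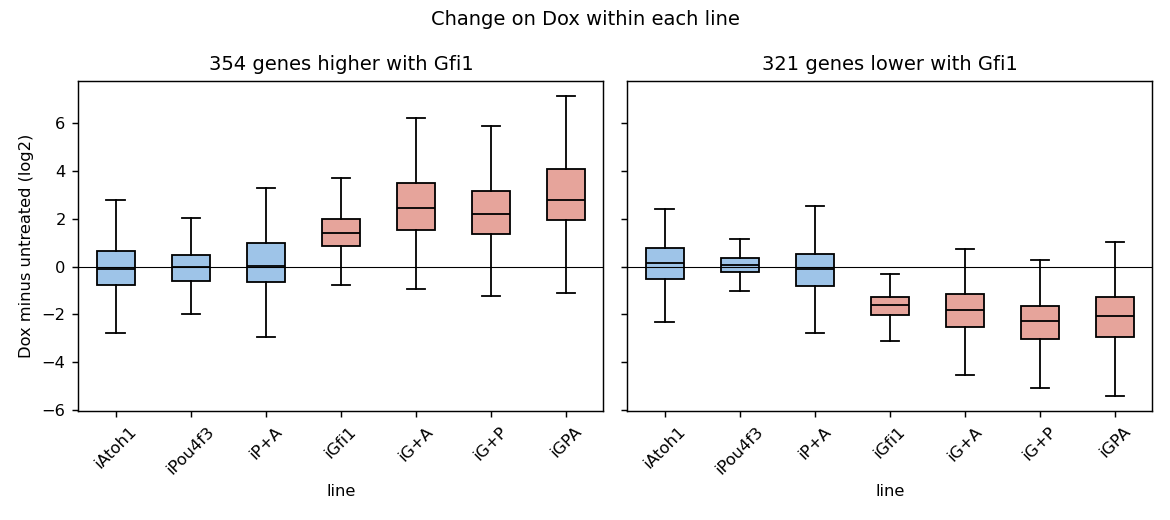
Change on Dox (Dox minus untreated line mean, log2) of the 354 genes higher and the 321 genes lower with Gfi1, by line, with lines without Gfi1 in blue and with Gfi1 in red; boxes span the quartiles, the bar is the median and whiskers reach 1.5 times the box height. Medians run from 1.43 to 2.80 in the red boxes on the left and from -2.28 to -1.59 on the right, and stay within 0.17 of 0 in the blue boxes.

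The genes with the largest falls included those for a growth cone protein, an RNA export family member and a chemokine. Gap43, a growth cone protein (chr16:42248555-42340764), ranged from 31.4 to 124 (median 49.1) with Gfi1 and from 433 to 5390 (median 2136) without it, a difference of -4.60 (SE 0.84, adjusted p = 0.0298). The 2 sets of libraries did not overlap. Nxf7, an X-linked member of the RNA export factor family, ranged from 20.2 to 145 against 670 to 1249 (-4.44, SE 0.47). The chemokine gene Cxcl14 ranged from 2.02 to 27.8 against 79.5 to 143 (-4.06, SE 0.51), and the mesenchymal gene Islr from 7.17 to 80.2 against 148 to 680 (-4.46, SE 0.71). Kctd12b (-4.26, SE 0.60), Spin2c of the spindlin family (-4.04, SE 0.50) and Tcp11x2 (-4.24, SE 0.52) also had libraries that did not overlap.

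Among the largest rises, Dgkg, a diacylglycerol kinase, was the most even across partners. It ranged from 493 to 1795 (median 993) with Gfi1 and from 31.1 to 75 (median 55.0) without, a difference of 4.27 (SE 0.24, adjusted p = 0.00598), and the matched differences were 4.13, 4.77 and 4.15. Cntn2, an axonal adhesion molecule, ranged from 247 to 7313 (median 1028) against 36.1 to 204 (median 65.4), a difference of 4.56 (SE 0.35). It was highest in iGPA, with 6000 and 7310. Sst, the neuropeptide somatostatin, was high only in the Gfi1 lines with Atoh1, with 1830 and 2080 in iG+A and 4770 and 4950 in iGPA, against 12.9 and 38.7 in iG+P, 3.87 and 12.3 in iGfi1 and 1.90 to 9.03 in the lines without Gfi1. Its 3 matched differences were unequal (8.72, 2.68 and 9.21, F test adjusted p = 0.00163, limma). Sox1, a neural progenitor factor, was also least different in the iG+P pair (6.18, 1.60 and 5.98, F test adjusted p = 0.0142). Kappa-casein Csn3 (4.68, SE 0.92), the dynein light chain family gene Tctex1d1 (4.93, SE 0.72) and the long non-coding RNA 2900052N01Rik (6.69, SE 0.46) were among the largest rises too.

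Several of the most extreme estimates rest on exact zeros and are given here by library. Nnat, an imprinted gene that encodes neuronatin (chr2:157385814-157388258), was listed at 0 in all 16 libraries of Gfi1 lines, treated or not, and at 1089 to 6367 in the 6 other Dox libraries. Its difference was present before Dox, at 1159 to 2710 in the other untreated libraries, so it separated the lines before induction. Zfp764, Insyn2b and Lrrc17 were listed at 0 in all 8 Dox libraries with Gfi1. The 6 libraries without it held 32.9 to 130 of Zfp764, 41.6 to 153 of Insyn2b and 0 to 297 of Lrrc17. Lrrc4, a synaptic adhesion molecule, was listed at 0 in all 6 libraries without Gfi1 and in both of iGfi1, and at 77.7 to 490 in the other Gfi1 lines. Flrt1, a cell surface protein, was listed at 0 to 8.65 without Gfi1 and at 80.2 to 427 with it, and Scx, the tendon factor scleraxis, at 0 to 35.3 against 0 to 465. Nnat, Lrrc4, Lrrc17, Flrt1 and Scx each lie inside another gene on the opposite strand (Blcap, Snd1, Fbxl13, Macrod1 and Bop1). Those host genes differed far less with Gfi1, between -0.29 and 1.05. Ints2, a subunit of the Integrator complex that all cells use, was also listed at 0 in 16 of 28 libraries while it reached 669 in another, so a 0 in this table cannot be read as no transcript. Leaving out every gene listed at 0 in any Dox library, a choice made after the values were seen, gave 317 higher and 284 lower genes.

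The sequence before the lower genes was compared with that before other genes because Gfi1 binds an AATC core. RefSeq promoters (250 bases before to 50 after a gene's start, GRCm38.p6) matched 13126 of the genes tested. The letters AAATCA, on either strand, were in 39 of 232 promoters of lower genes (16.8%), in 18 of 257 of higher genes (7.0%) and in 9.01% of all. The longer form AAATCAC, which contains the first, was in 12 of 232 (5.17%), 3 of 257 (1.17%) and 2.14%. Median GC content was 59.3%, 59.7% and 60.0%. The E-box CAGCTG, a form that proneural bHLH factors bind, was in 63 of 257 promoters of higher genes (24.5%), in 44 of 232 of lower genes (19%) and in 16.1% of all, so both called groups lay above all genes. None of the 7 lower Hox genes with a matched promoter held AAATCA. A match is a string of letters and not a measured binding site, and these shares were given no test.

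The following stretches show AAATCAC in context in 8 of these lower genes, left to those with a role described below, each read 5′ to 3′ on the strand of the gene, with the motif, or its reverse complement GTGATTT, in capitals. They show how far the match stands from the start and which letters flank it, and positions are mm9, where each stretch was found once by exact match.
Dab2, chr15:6249585-6249615, + strand: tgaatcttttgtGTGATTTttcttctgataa
En1, chr1:122498931-122498961, + strand: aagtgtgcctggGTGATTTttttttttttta
Magel2, chr7:69521645-69521675, + strand: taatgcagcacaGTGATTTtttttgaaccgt
Meg3, chr12:110778957-110778987, + strand: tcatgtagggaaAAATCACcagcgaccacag
P4ha3, chr7:107433825-107433855, + strand: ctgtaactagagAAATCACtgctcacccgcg
Plac1, chrX:50593361-50593391, - strand: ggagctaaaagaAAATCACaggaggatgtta
Rpp25, chr9:57351667-57351697, + strand: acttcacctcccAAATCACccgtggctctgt
Stambpl1, chr19:34266559-34266589, + strand: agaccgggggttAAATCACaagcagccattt
The match began 92 bases before the start in Plac1 and 121 in En1, and between 148 and 237 bases before it in the 6 others.

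These 8 genes differed in level and role. Meg3, an imprinted long non-coding RNA, was the most abundant, with a mean of 19840 normalized counts with Gfi1 and 49930 without (-1.63, SE 0.32). Dab2, an endocytic adaptor of primitive endoderm, averaged 1029 against 4084 (-2.22, SE 0.34). Plac1, an X-linked trophoblast gene, averaged 71.2 against 526 (-3.73, SE 0.74), and Magel2, an imprinted gene of the Prader-Willi region, 48.1 against 298 (-2.94, SE 0.46). En1, a homeobox factor of the midbrain-hindbrain boundary, averaged 7.88 against 59.6 (-2.73, SE 0.45). P4ha3 (collagen prolyl hydroxylase; -2.13), Rpp25 (a ribonuclease P subunit; -2.29) and Stambpl1 (a deubiquitinase; -2.42) were each lower as well. The untreated difference of these 8 genes lay between -0.42 and 0.15.

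Of the genes tied to Gfi1 function, 1 in each of 2 lists was lower, beside 1.91% of all genes lower and 2.1% higher. Of 19 tested genes for SNAG factors and corepressors, Snai2, a SNAG-domain repressor of epithelial genes, was lower and none was higher, and the median difference was 0.01 beside 0.02 for all genes. Snai2 ranged from 330 to 2517 (median 612) with Gfi1 and from 3044 to 5022 (median 3633) without (-2.64, SE 0.31, adjusted p = 0.0127). The sets did not overlap, and the matched differences were -3.15, -2.80 and -2.48. Of 20 tested genes known to be repressed by Gfi1 in blood cells, Csf1, the macrophage growth factor, was lower and none was higher (median -0.27). Csf1 ranged from 192 to 483 against 519 to 1552 (-1.92, SE 0.30).

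None of the 14 Id and BMP pathway genes was called, against 2.1% of all genes higher and 1.91% lower. Below 0 were 12 of the 14 (median -0.49) and 48.1% of all genes. Id2, which encodes an inhibitor of bHLH factors, had an adjusted p of 0.00815 at a difference of -0.96 (SE 0.09), short of the size set for a call. It held 13000 and 12200 in iAtoh1 against 8790 and 5160 in iG+A, and 13000 and 11200 in iP+A against 5390 and 5630 in iGPA. Id1 (-0.23, SE 0.23), Id3 (-0.44, SE 0.21) and Id4 (-0.60, SE 0.23) did not pass the test.

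Of 23 Notch pathway genes, 4 were higher with Gfi1 (2.1% of all genes) and none was lower (1.91%), with a median of 0.89. The count was 0 without iGPA, iP+A or iG+A, 2 without iG+P, 1 without the first iPou4f3 library and 2 without the first iGfi1 library. Jag2, a ligand that nascent hair cells present to their neighbours, ranged from 706 to 5484 (median 2998) with Gfi1 and from 223 to 2143 (median 1283) without (1.76, SE 0.24, adjusted p = 0.0165). Within partners it rose from 264 to 1297 on average between iPou4f3 and iG+P, and from 1283 to 4611 between iP+A and iGPA. The fringe glycosyltransferase Mfng (1.53, SE 0.14), the effector Heyl (1.92, SE 0.42) and the feedback inhibitor Nrarp (1.73, SE 0.34) were higher too. Nrarp ranged from 660 to 3280 against 275 to 632, without overlap. The ligand Dll1 was not called, and its matched differences were unequal at -0.93, 3.07 and 0.96 (F test adjusted p = 0.00386).

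Hair cell genes were higher with Gfi1 in part. Of 38 hair bundle genes tested, 5 were higher and none was lower, against 2.1% and 1.91% of all genes (median difference 0.40). The median matched difference was -0.015 for iG+A minus iAtoh1, 0.714 for iG+P minus iPou4f3 and 0.167 for iGPA minus iP+A. The count was 0 without iGPA, 1 without iP+A, 2 without iAtoh1 and 3 without iG+A or iG+P. It was also 3 without the first iAtoh1, the first iPou4f3, the second iG+A or the second iG+P library. Tmie, a subunit of the mechanotransduction channel complex (chr9:110768215-110782617), held 9.14 and 7.57 in iAtoh1 against 154 and 105 in iG+A, 11.6 and 27.4 in iPou4f3 against 279 and 233 in iG+P, and 106 and 89.4 in iP+A against 975 and 1090 in iGPA. In iGfi1 it held 4.83 and 10.3, so the 2 sets overlapped. Its adjusted difference was 3.43 (SE 0.43, adjusted p = 0.0145), with matched differences of 3.78, 3.76 and 3.39. It overlaps Als2cl on the opposite strand, which was itself higher by 2.13 (SE 0.28), and the counting was not stated to use strand.

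Espn, the actin bundler of stereocilia, ranged from 760 to 2332 (median 1883) with Gfi1 and from 192 to 915 (median 499) without, and the difference was 1.99 (SE 0.30, adjusted p = 0.0203). Its matched differences were unequal, at 2.00, 2.89 and 1.18 (F test adjusted p = 0.0356). Clic5, a protein of the stereocilium base, differed by 2.12 (SE 0.27), and the Usher protein gene Ush1c by 1.62 (SE 0.35). Pcdh15, the lower part of the tip link, was not called (2.64, SE 0.91, adjusted p = 0.121). It held 1300 and 830 in iG+A and 2860 and 2100 in iGPA against 56.3 to 152 in iAtoh1 and iP+A, but 432 and 592 in iG+P beside 430 and 409 in iPou4f3. Cdh23 (-0.14, SE 0.25), Myo7a (0.70, SE 0.28) and Myo6 (0.53, SE 0.22), which were at 1386 normalized counts or more in every untreated library, did not pass the test.

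Of 14 hair cell transcription factors, Lhx3 was higher (2.1% of all genes) and Tbx2 lower (1.91%). Lhx3, a LIM homeobox factor of hair cells, held 337 and 497 in iGPA, 76.0 and 143 in iG+A and 47.9 and 28.8 in iP+A, and at most 9.14 in the other lines (3.37, SE 0.53, adjusted p = 0.0227). Tbx2, which specifies inner hair cells, ranged from 701 to 1703 (median 1113) with Gfi1 and from 2792 to 6414 (median 3934) without (-1.82, SE 0.15, adjusted p = 0.00744). Of 20 genes of the hair cell synapse and calcium handling, Calb1, a calcium buffer, was higher (2.07, SE 0.34), against 2.1% of all genes. Slc17a8, the vesicular glutamate transporter of inner hair cells, stopped short of a call (4.85, SE 1.14, adjusted p = 0.0516) with 748 and 926 in iG+P, 111 and 128 in iGPA, 25.5 and 77.4 in iG+A and at most 6.91 in lines without Gfi1. Otof, which encodes the synaptic calcium sensor otoferlin, did not pass (0.84, SE 0.33, adjusted p = 0.163).

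Matched differences of neuronal genes were often unequal between partners. Genes whose 3 matched differences were unequal, by an F test over the 14 libraries at an adjusted p under 0.05 and a range of at least 1.5, numbered 1537 (9.13% of genes tested), and 17 of the 33 pan-neuronal genes were among them. Gap43 was called lower over all lines (1.91% of all genes), the 32 others were not called, and the median difference of the list was -0.17. Also unequal were 10 of 38 hair bundle genes, 5 of 14 hair cell transcription factors and 7 of 23 Notch pathway genes. So were 8 of 20 sensory neuron genes and 8 of 24 regional patterning factors. This F test takes the library as the unit, so a partner's part and that of the single line carrying it cannot be told apart. Tubb3, the neuronal beta tubulin, held 1140 and 870 in iAtoh1 against 37.2 and 91.5 in iG+A, and 9650 and 7740 in iP+A against 278 and 222 in iGPA. In iPou4f3 (184 and 245) and iG+P (163 and 132) it was low on both sides. The matched differences were -4.07, -0.53 and -5.11 (SE 0.34, F test adjusted p = 0.000937), and the adjusted difference over all lines did not pass (-2.67, SE 1.21, adjusted p = 0.212).

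The other neuronal genes did not follow 1 pattern. Stmn2, a regulator of axonal microtubules, had matched differences of -0.90, -0.71 and -2.68. Dcx, the microtubule protein of migrating neurons, had -0.93, 2.40 and -0.52 (F test adjusted p = 0.00704), with 142 and 279 in iG+P above 33.8 and 40.1 in iPou4f3. The tau gene Mapt had 2.10, 0.21 and 1.20 (F test adjusted p = 0.00301), and its level in iG+A, 777 and 869, was above that in iAtoh1, 214 and 171. Of 20 sensory neuron genes, the neurotrophin receptor Ntrk3 (1.81, SE 0.36) and the sodium channel Scn10a (2.71, SE 0.62) were higher, against 2.1% of all genes, and the median of the list was 0.00. Of 12 proneural and other bHLH genes, Tcf3, Tcf4, Tcf12 and Helt among them, Atoh8 was lower (1.91% of all genes). It ranged from 170 to 591 against 671 to 2891 (-1.95, SE 0.13, adjusted p = 0.00605), with matched differences of -2.06, -2.05 and -1.71.

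**Figure D4:**
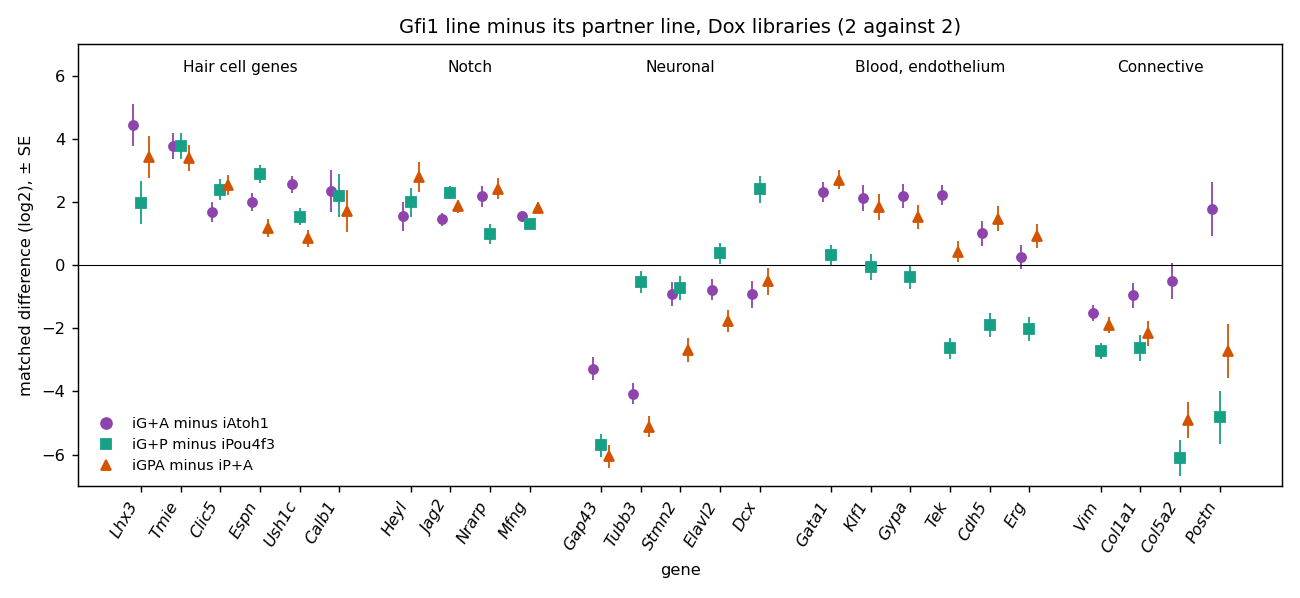
Matched differences (log2, Gfi1 line minus its partner line, Dox libraries, 2 against 2) of selected genes from the text, with circles for iG+A minus iAtoh1, squares for iG+P minus iPou4f3 and triangles for iGPA minus iP+A; bars are the SE of the 7-group limma fit. The hair cell and Notch genes plotted were all called higher. Every called gene has the same sign in all pairs, so their place above 0 follows from that choice. Tubb3, Tek and Postn, and also Lhx3, spread over more than 2 log2 units between pairs.

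Blood and endothelial genes often differed between the partner pairs. Matched differences were unequal for 15 of 22 blood genes and 13 of 17 endothelial genes, against 9.13% of all genes tested. The median matched difference of the blood genes was 1.89 for iG+A minus iAtoh1 and 1.74 for iGPA minus iP+A, but -0.22 for iG+P minus iPou4f3. Gata1, the erythroid master regulator, held 424 and 442 in iAtoh1, 1890 and 2460 in iG+A, 341 and 649 in iP+A and 2410 and 3940 in iGPA. It was high on both sides of the remaining pair, with 4470 and 5010 in iPou4f3 and 5000 and 7040 in iG+P (F test adjusted p = 0.00842). The embryonic globin Hbb-bh1 held 170000 and 165000 in iPou4f3, 227000 and 123000 in iGfi1 and at most 40600 in any Dox library of the other 5 lines. Levels of blood RNA thus differed among lines on both sides of the comparison. In these bulk libraries fewer cells of a type and less RNA per cell cannot be told apart.

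Over all lines Ikzf1, the lymphoid factor Ikaros, was the 1 blood gene of 22 called (higher, 1.77, SE 0.35), against 2.1% of all genes. Lmo2, a bridging protein of the Tal1 complex, just missed the threshold (2.66, SE 0.63, adjusted p = 0.0530), with 4582 to 17720 in Gfi1 lines above 410 to 3244 in the others. Of the 17 endothelial genes, beside 2.1% of all genes higher and 1.91% lower, Etv2, which specifies haemangioblasts, and the VEGF receptor Flt1 were higher (2.03, SE 0.34, and 1.54, SE 0.26), and Ramp2 was lower (-1.62, SE 0.37). The angiopoietin receptor Tek went in opposite directions, up from 1000 and 1460 in iAtoh1 to 5540 and 5690 in iG+A and down from 5740 and 3700 in iPou4f3 to 585 and 933 in iG+P (matched differences 2.21 and -2.64, and 0.42 for iGPA minus iP+A, F test adjusted p = 0.000596). Cdh5 (1.01, -1.90 and 1.48) and Erg (0.25, -2.02 and 0.93), markers of endothelial junctions and nuclei, were likewise negative in the iG+P pair and positive in the others.

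Connective tissue genes were lower with Gfi1 for 4 of 22 members (Vim, Col1a1, Col5a1 and Twist2) and higher for 2, Foxc1 and Foxc2, against 1.91% and 2.1% of all genes. Vim, the mesenchymal intermediate filament, ranged from 4377 to 12230 (median 9372) with Gfi1 and from 27690 to 36300 (median 31860) without (-1.96, SE 0.25, adjusted p = 0.0146). The sets did not overlap, whereas the untreated libraries, 24100 to 37390 and 25870 to 36710, did. Foxc1 and Foxc2, forkhead factors of paraxial mesoderm, were higher by 2.89 (SE 0.47) and 2.85 (SE 0.36), and Foxc2 ranged from 105 to 513 against 21.8 to 57.6. Levels of collagen Col5a2 and periostin (Postn) again differed by pair. Postn held 50900 and 17700 in iPou4f3 against 526 and 2140 in iG+P, and 12000 and 11600 in iP+A against 1070 and 3020 in iGPA. In iAtoh1 it held 1390 and 1370 beside 12000 and 1890 in iG+A. Col5a2 held 7090 and 2910 in iPou4f3 against 47.1 and 90.0 in iG+P, and 2240 and 2140 in iP+A against 51.2 and 101 in iGPA, but 111 and 86.0 in iAtoh1 beside 118 and 40.3 in iG+A (F test adjusted p = 0.00272).

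Most markers of other embryoid body lineages were not called, and the counts that follow stand beside 1.91% of all genes lower and 2.1% higher. Of 13 cardiac and muscle genes, Hand1, Hand2 (-2.25, SE 0.38) and Nkx2-5 (-2.79, SE 0.49) were lower and cardiac actin Actc1 higher (2.27, SE 0.38). Hand1, a bHLH factor of heart and extra-embryonic mesoderm, ranged from 1287 to 7322 (median 3216) with Gfi1 and from 24260 to 47870 (median 36160) without, a difference of -3.66 (SE 0.42, adjusted p = 0.0122). Its untreated levels, 15370 to 47580 in Gfi1 lines and 18790 to 40720 in the others, did overlap. The summed level of the list was 8463 to 28980 with Gfi1 and 35570 to 72520 without, but without Hand1 the 12 others summed to 5143 to 27020 and 11130 to 24640, which overlap. Of 13 endoderm genes, Dab2 was lower. The summed level was 4185 to 7257 against 10100 to 15840, and without Dab2 3504 to 5739 against 5192 to 12560, which overlap. Of 13 surface epithelium genes, Krt19 (-2.19, SE 0.27) and Tfap2a (-2.59, SE 0.27) were lower, but the list was below 0 before Dox too (median -0.85 with Dox and -0.68 untreated). Of 16 pluripotency genes, Dppa3 was lower (-2.54, SE 0.57), and this list was also below 0 before Dox (untreated median -1.07). The part of these lineages in the other differences was not tested.

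Many Hox genes, which set position along the body axis, were lower with Gfi1. Of 34 tested, 14 were lower with Gfi1 and none was higher, against 1.91% and 2.1% of all genes tested, and 32 lay below 0. The median difference was -1.87 with Dox and 0.11 in untreated libraries. The median matched difference was -0.77 for iG+A minus iAtoh1, -2.13 for iG+P minus iPou4f3 and -1.88 for iGPA minus iP+A, and matched differences were unequal for 5 genes (9.13% of all genes tested). The 14 were spread over the 4 clusters and included Hoxa11, Hoxb4, Hoxb6, Hoxc4, Hoxc6, Hoxc8, Hoxc10, Hoxd9 and Hoxd13. The count was 0 without iGPA, 2 without iP+A, 8 without iPou4f3 and 10 to 14 when any other line was left out. It was 7 when untreated levels were subtracted line by line.

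Hoxc8, a thoracic patterning gene (chr15:102821053-102824698), held 549 and 357 in iAtoh1, 299 and 281 in iPou4f3 and 106 and 121 in iP+A. In Gfi1 lines it held 90.9 and 107 in iGfi1, 20.2 and 45.1 in iG+A, 23.6 and 14.1 in iG+P and 11.2 and 8.07 in iGPA. iP+A and iGfi1 met, and every matched pair was apart (-3.66, SE 0.28, adjusted p = 0.00698; matched differences -3.83, -3.92 and -3.44). Hoxc6 ranged from 11.3 to 90.3 against 167 to 667, without overlap (-3.49, SE 0.30, adjusted p = 0.00744). Hoxb6 ranged from 0 to 55.5 against 89.4 to 378 (-4.19, SE 0.66), and its untreated levels were 261 to 546 in Gfi1 lines and 227 to 477 in the others. The genes above 0 were Hoxb1 and Hoxd1, both at the 3′ end of their clusters and neither called. Hoxd1 ranged from 481 to 1029 with Gfi1 and from 311 to 603 without (1.01, SE 0.21, adjusted p = 0.0371, below the size set for a call), and Hoxb1 from 73.0 to 976 against 1.92 to 135 (2.87, SE 0.86, adjusted p = 0.0904). The second iG+A library was higher than the first for many of these genes, such as Hoxb1 (976 against 81.8), and without it 16 Hox genes were lower.

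**Figure D5:**
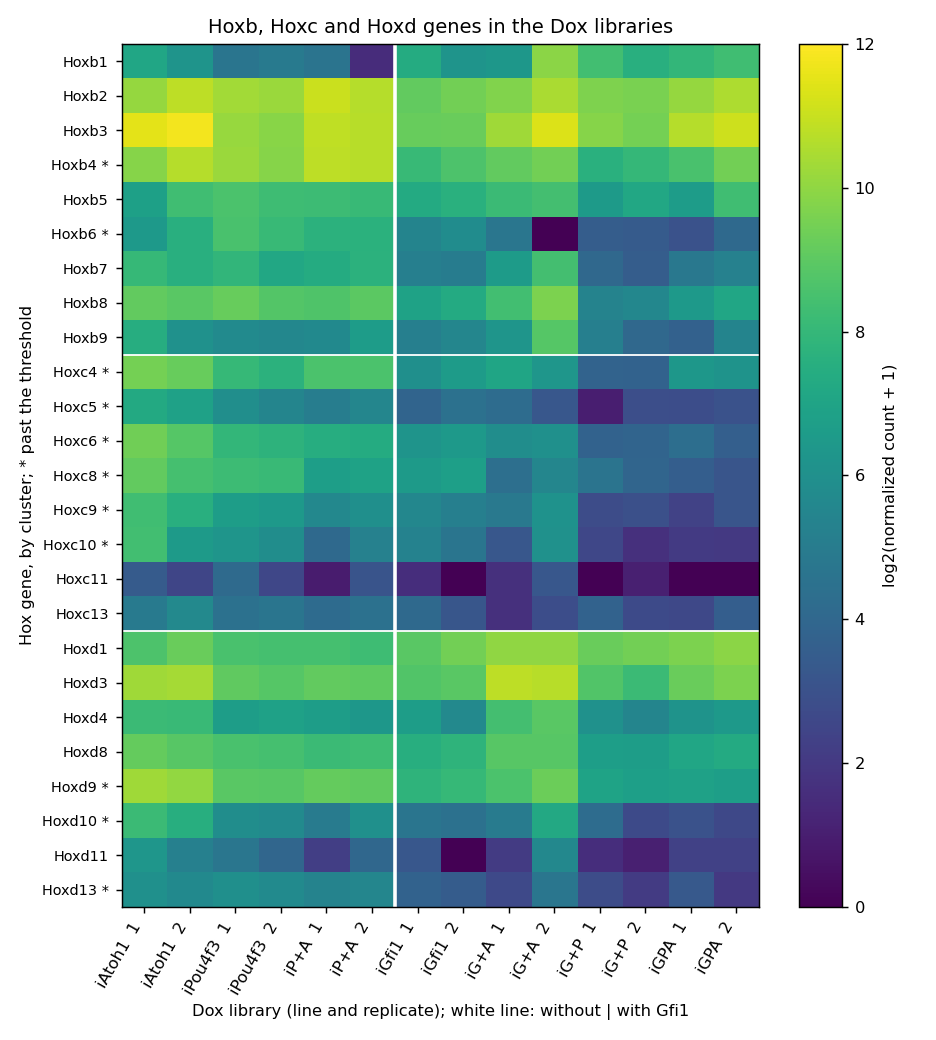
Level, as log2(normalized count + 1) on a colour scale from 0 to 12, of the tested genes of the Hoxb, Hoxc and Hoxd clusters (rows, stars for those called lower) in the 14 Dox libraries (columns), with a white line between the 6 libraries without and the 8 with Gfi1. Starred rows are darker to the right of the line, and Hoxd1 and Hoxb1 are not.

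Other regional patterning factors were called in both directions. Of 24 tested, Gbx2 (3.60, SE 0.51) and Dlx3 (2.15, SE 0.14) were higher (2.1% of all genes), En1 (-2.73, SE 0.45) and Barhl2 (-3.73, SE 0.80) were lower (1.91%), and 20 were not called. Gbx2, a hindbrain factor, ranged from 32.9 to 589 (median 93.3) with Gfi1 and from 2.88 to 16.4 (median 7.73) in the lines without it, with no overlap. Its matched differences of 3.71, 3.97 and 3.89 are imprecise (SE 1.09), since the 2 iG+A libraries held 32.9 and 589. Barhl2, a target of Atoh1 in neurons, held 743 and 533 in iP+A against 21.5 and 5.05 in iGPA, and 31.3 to 97.8 in iAtoh1 and iPou4f3 against at most 12.8 in iG+A and iG+P. Otx1 was not called (-1.55, SE 0.73), with unequal matched differences of -3.67, 0.37 and -1.64.

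Genes of the most unequal response to Gfi1 were near or at 0 in part of the lines. Lrrtm4, a synaptic adhesion gene, held 43.1 and 4.72 in iAtoh1 against 1350 and 315 in iG+A, but 1760 and 1540 in iPou4f3 against 46.1 and 25.6 in iG+P, and 255 and 182 in iP+A against 6.05 and 70.1 in iGPA (matched differences 5.36, -5.54 and -3.27, F test adjusted p = 0.00267). Dbx1, a homeobox factor of spinal interneuron progenitors, was high in the lines with both Gfi1 and Atoh1, with 892 and 764 in iG+A and 335 and 455 in iGPA, against at most 20.1 in the other 10 libraries (F test adjusted p = 0.00140). Mstn, the muscle growth inhibitor myostatin, held 156 and 121 in iPou4f3 and at most 2.44 elsewhere. F2rl2, Depp1 and Rprl1 contained libraries of 1 line that differed from 0 to 48.7, from 0 to 21.5 and from 84.4 to 2240.

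Cell division and stress genes were not called, beside 2.1% of all genes higher and 1.91% lower. None of 18 cell division genes was called (median -0.03), and Mki67 ranged from 15760 to 37830 with Gfi1 and from 15820 to 35540 without (0.10, SE 0.09, adjusted p = 0.542). Of 7 CDK inhibitors, Cdkn2c was lower (1.91% of all genes), at 30.5 to 66.7 against 68.5 to 151 (-1.57, SE 0.33, adjusted p = 0.0411). None of 12 dissociation and stress genes was called, with Fosb at -0.38 (SE 0.49) and Egr1 at -0.32 (SE 0.55).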

How the data were processed

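RNA-seq was done on 14 Dox-treated, sorted and 14 untreated samples. Per the labels and the study's methods, the authors trimmed reads with cutadapt, quantified them with Kallisto against UCSC knownGene transcripts (mm9), summed them to genes and divided by DESeq2 size factors. The deposited values are log2 of the normalized count plus 1, with no counts, so read depth is unknown and no count test was used. Here genes with 10 normalized counts in 2 of 28 libraries were kept, libraries were averaged per line, and limma 3.58.1 in R 4.3.3 (trend, 3 residual degrees of freedom) fitted Gfi1, Atoh1 and Pou4f3 presence. A 7-group fit gave matched differences and their F test. Scripts were tested on simulated data.

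The lines, lists and named genes were chosen with earlier results of these data known. Named were the 3 factors, the 12 largest rises and falls of the same sign in all pairs (without genes lacking a symbol, clustered protocadherins and genes at 0 in 1 library and over 50 in its replicate), up to 4 called members per list (otherwise the 2 most abundant), the 6 most unequal genes and genes the study names. Genes of the most unequal lists and those with the motif were added after their values were seen. P-values of the line fit measure the Gfi1 difference against a residual that holds both the spread between these lines and departures from additive factor effects. Those of the F test measure only the spread between libraries of a line. Replicate numbers did not pair samples (21 line pairs, correlation of deviations -0.20 to 0.11). Positions are from the NCBIM37 (mm9) annotation. Some genes that met the rule are not reported here.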

Additional observations from a re-analysis of the deposited data

Results flagged for a closer look

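Of 84 named genes examined, 23 had matched differences that were unequal between the 3 partner pairs by the limma F test (9.13% of all genes tested). Lrrtm4, F2rl2, Depp1, Rprl1, Dbx1 and Mstn were named because they were the most unequal, so they count among the 23 by selection. A Gfi1 line whose mean stood apart from the other 3 was found for 5 genes. Values for the unequal genes are the range of the 3 matched differences on the log2 scale. They were 10.90 for Lrrtm4, 9.52 for F2rl2, 9.26 for Depp1, 8.77 for Rprl1, 8.62 for Dbx1, 8.53 for Mstn and 6.53 for Sst, all genes at or near 0 in part of the lines. Where a line is at 0, as for Scx, Lrrc4 and several of these, the range depends on the pseudocount. Among genes called higher the range was 4.71 for Scx, 4.58 for Sox1, 3.79 for Tctex1d1, 3.10 for Scn10a, 2.23 for Lrrc4, 1.83 for Ikzf1, 1.77 for Foxc1, 1.71 for Espn and 1.68 for Cntn2. Among genes called lower it was 2.78 for Gap43, 2.09 for Ramp2 and 1.80 for Kctd12b. Of the remaining genes, Tubb3 had a range of 4.58, Otx1 of 4.03, Dcx of 3.33 and the transgene Pou4f3 of 2.67.

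The gap of the line that stood apart, over the range of the 4 line means, was 0.931 for Dgkg, 0.897 for Espn and 0.871 for Snai2, each set by iGfi1, past Dixon's 95% critical value. In iGfi1 the rise of Dgkg and Espn and the fall of Snai2 were smaller than in the other Gfi1 lines. It was 1.0 for Rprl1 (iGPA) and 1.0 for Mstn (iG+A), where the other 3 lines were at 0. Chance flags about 1 in 20 such groups.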

How the results depend on the processing

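The counts of genes higher and lower with Gfi1 (354 and 321) moved by more than 1.5 times without the expression filter (156 and 183), with limma without trend (185 and 208) and with untreated levels subtracted line by line (222 and 183). A log2 size of at least 1 gave 556 lower genes. The cause of these shifts was not tested. A fit over 14 libraries, which counts the libraries of a line as independent, gave 637 and 539, and with the replicate number as a block 632 and 532. With a line left out, the counts ran from 1 to 436 higher and from 2 to 351 lower, lowest without iGPA, and such fits have 2 residual degrees of freedom. Without iGPA, 326 of 354 and 307 of 321 differences were at least 1.5 in size, which the selection of these genes on the shared lines favours. With 1 library left out they were 286 to 397 and 255 to 343. The untreated counts (0 and 1) stayed at 0 and 1 under every alternative except without iPou4f3, which gave 17 and 49. The 1537 genes with unequal matched differences became 1052 to 1640 with 1 library left out and 1445 with the replicate block. Of 65 called genes named under the rule, 63 were no longer called without iGPA, 37 with untreated levels subtracted and 26 each without the filter or without trend, and none changed sign under any alternative. Dppa3 lost its call in 19 of 34 alternatives, Scn10a in 18, Ramp2 in 17 and Heyl and Barhl2 in 16 each. Depth is unknown, and exact zeros, such as those of Nnat, limit what the lowest values show.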

Other observations

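In a list of 35 imprinted genes, compiled after values were seen and therefore given no test, 33 were tested, 7 were lower (Meg3, Nnat, Phlda2, Plagl1, Magel2, Nap1l5 and Asb4) against 1.91% of all genes, and 0 were higher. Nnat already differed before Dox and is listed at 0. Below 0 were 26 of the 33 (48.1% of all genes), with a median difference of -0.95 beside 0.02 for all genes. The size varied between the iG+A, iG+P and iGPA pairs. Matched differences were -0.757, -2.476 and -1.855 for Meg3 and -3.164, -1.605 and -2.81 for Phlda2. Genes of the X chromosome made up 3.81% of the tested genes with a position, 1.85% of those higher with Gfi1 and 6.29% of those lower, and the median difference of X genes was -0.03.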
